A study of Sus scrofa with 20 samples.

Results

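The transcripts described here were chosen by the form of their counts in the table deposited for LLC-PK1, an epithelial cell line from the proximal tubule of the pig. A transcript was kept if its estimated count was a whole number, within 1e-06, in all 20 libraries and if its mean over the libraries was at least 1.3 CPM (counts scaled to a common library total). The rule kept 288 of the 46295 transcripts in the table, and 20292 transcripts reached the CPM minimum. The cells had been transfected with siRNA and were assayed 48 h later, the last part of this time without serum. The groups were a non-related control siRNA (siNR, 4 libraries), siRNA against polycystin-1 (siPC1, 5 libraries), siRNA against polycystin-2 (siPC2, 3 libraries), and each polycystin siRNA together with siRNA against myocardin-related transcription factor A (4 libraries of siPC1+siMRTF-A and 4 of siPC2+siMRTF-A). The groups follow the sample titles, in which 1 siPC1 library carries the replicate label A2, and the study's own account gives other group sizes. No group received siMRTF-A alone, so its addition was compared only in cells that also received a polycystin siRNA. All libraries came from 1 cell line, and the labels do not say whether the replicates were separate cultures, so p-values measure only the spread between these libraries, which may be technical.

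Polycystin-1 and polycystin-2 are membrane proteins that work as a complex in renal epithelial cells and at their primary cilia, and inherited loss of either causes autosomal dominant polycystic kidney disease. MRTF-A is held by monomeric actin in the cytosol. When actin polymerizes, MRTF-A enters the nucleus and acts with serum response factor on genes of the cytoskeleton and of cell attachment. The table names Ensembl transcripts and no genes. None of the transcript identifiers matched the 15623 gene identifiers for which a symbol was at hand (0 matches), so the members are described by their identifiers and values, and neither the cell type nor the silenced genes could be checked by name.

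Salmon, which the authors used for quantification, compares each read with a set of transcript sequences. A read that fits several sequences is shared out among them in proportion to their estimated abundance, and the estimate for such a transcript is usually a fraction. Of the transcripts at or above 1.3 CPM, 12571 were whole in none of the libraries (0 of 20) and 318 were whole in 19. Over all levels, 13649 transcripts were whole throughout, of which 8733 were at 0 in every library and 4628 more lay above 0 but below the CPM minimum. The 3 members nearest the minimum had means of 1.31, 1.32 and 1.32 CPM, and the 3 whole-number transcripts just below it had 1.29, 1.29 and 1.29 CPM.

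The members were transcripts of low level. Their median was 2.47 CPM (quartiles 1.75 and 4.65, highest 23.6), against 16.2 CPM for the other transcripts at or above the minimum. They made up 6.07% of transcripts between 1.3 and 3 CPM (174 of 2865), 2.03% between 3 and 10 CPM (99 of 4883) and 0.256% between 10 and 30 CPM (15 of 5868). No member reached 30 CPM, a level held by 6676 transcripts. The CPM are not corrected for transcript length, so they rank reads and not molecules.

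**Figure D1:**
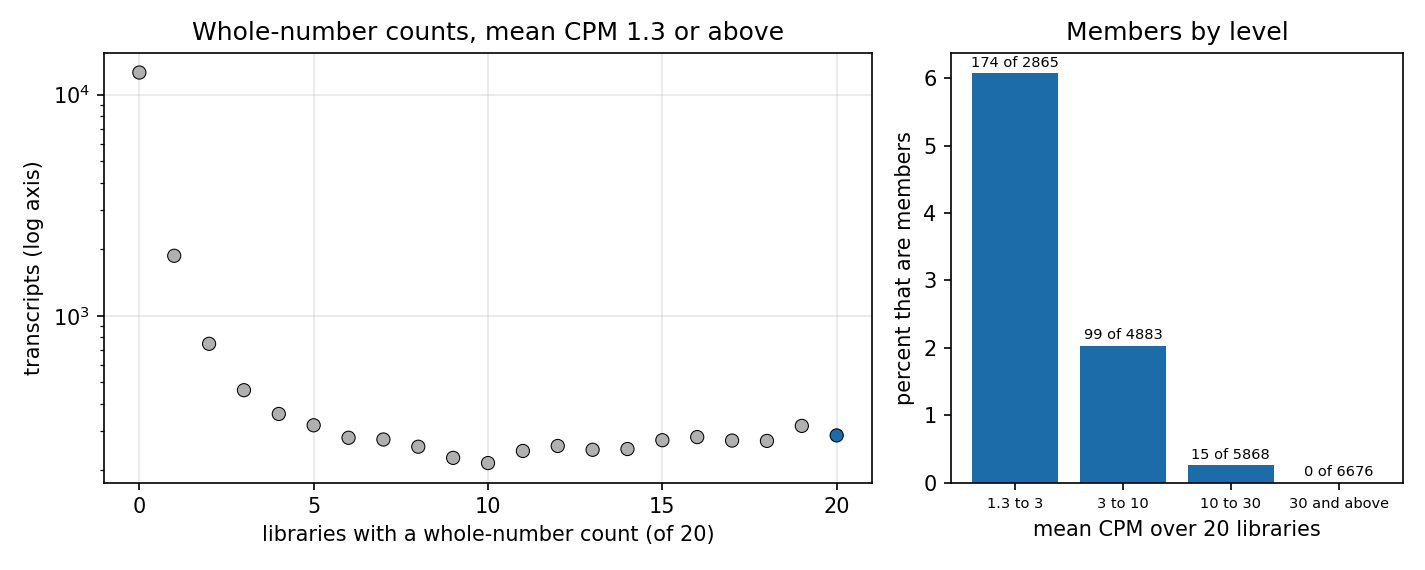
Left, the number of transcripts (log axis) against the number of libraries, of 20, in which the estimated count was whole, for transcripts with a mean of at least 1.3 CPM; the members are the blue point. Right, the percent of transcripts that are members in 4 bands of mean CPM; the share fell from 6.07% in the lowest band to 0 in the highest.

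Library totals ran from 4421001 in siPC1 replicate 1 and 11790504 in siPC2 replicate 2 to 71007731, and all other libraries held at least 22874625. The members held 0.107 to 0.128% of the siNR libraries, 0.0966 to 0.110% of siPC1, 0.118 to 0.121% of siPC2, 0.0999 to 0.110% of siPC1+siMRTF-A and 0.109 to 0.119% of siPC2+siMRTF-A. The shares of siPC1 and siPC2 did not overlap. Over the members, siPC1 replicate 1 followed the mean of its group least closely (Spearman's rho 0.879 across members, against 0.909 to 0.977 for the other libraries), and the main counts are also given without it.

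Whole numbers may not always have meant undivided reads. Most members, 277, had reads in all 20 libraries, and 11 were at 0 in at least 1 library. For 2 of these 11, singled out after their values were seen, another transcript was present in exactly the libraries where the member was absent. Such a partner was searched for by this opposite pattern. It was kept only if the summed count was in no library far below its median, so a steady sum is part of the choice. ENSSSCT00000049089.3 had 241 reads in siPC1 replicate 3, 278 in siPC2 replicate 3, 207 in siPC2 replicate 4 and 324 in siPC2+siMRTF-A replicate 4, and 0 in the other 16 libraries. ENSSSCT00000055229.3 was at 0 in those 4 libraries and had reads in the other 16. The sum of both, scaled to a common library size, was 196 ± 20.4 in siNR (SD, n = 4), 248 ± 40.0 in siPC1 (SD, n = 5) and 298 ± 41.9 in siPC2 (SD, n = 3). With siMRTF-A added it was 229 ± 10.5 in siPC1+siMRTF-A and 311 ± 23.3 in siPC2+siMRTF-A (SD, n = 4 each). In siPC1, siPC2 and siPC2+siMRTF-A the libraries of a group were divided between the transcripts of the pair. In siNR and siPC1+siMRTF-A all reads of the pair were on ENSSSCT00000055229.3. Its counts were fractions in siPC2+siMRTF-A replicates 1 and 2 (409.705 and 561.15), where the member was at 0. Which other sequence shared these reads was not examined.

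ENSSSCT00000046623.3 showed the same exchange. It was at 0 in siNR replicate 3, siPC2 replicate 4, siPC1+siMRTF-A replicate 1 and siPC2+siMRTF-A replicate 2, and ENSSSCT00000074288.2 had reads in these 4 libraries only, 176, 73, 141 and 205. The summed normalized count was 142 ± 6.09 in siNR, 134 ± 23.1 in siPC1, 129 ± 33.0 in siPC2, 97.7 ± 8.83 in siPC1+siMRTF-A and 105 ± 14.9 in siPC2+siMRTF-A (SD, n = 4, 5, 3, 4 and 4). Neither member was called in any comparison. For these pairs the values put the label of undivided reads in doubt, and the list is called whole-number members below. Whether the 2 sequences of a pair are alike could not be checked.

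**Figure D2:**
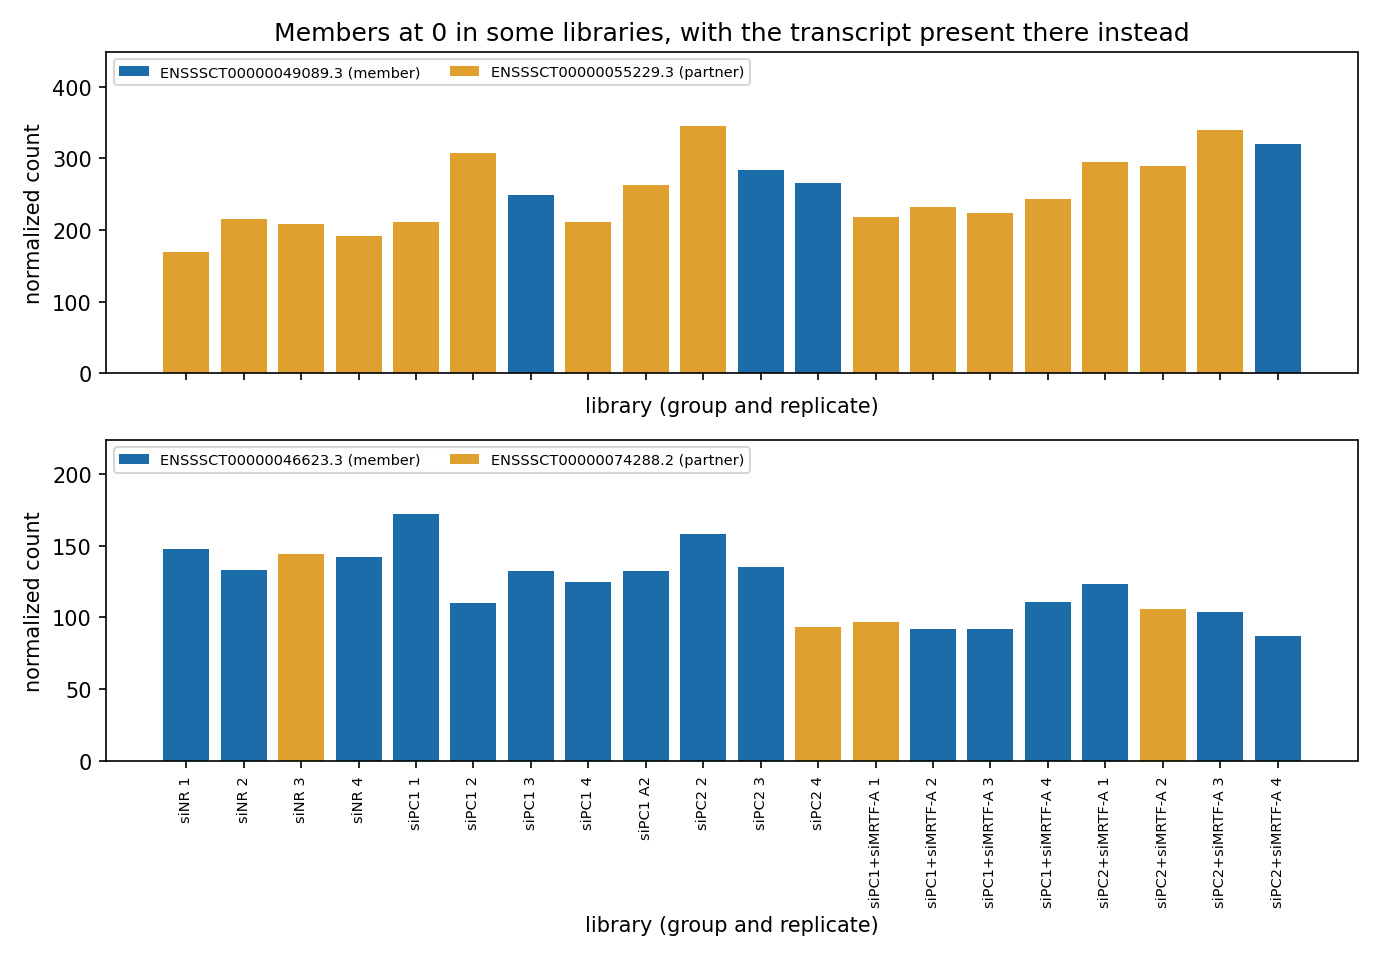
Normalized count in each of the 20 libraries (horizontal axis, group and replicate) for 2 members (blue) and for the transcript with the opposite pattern (orange), stacked. In every library 1 transcript of the pair held all the reads, while the height of the stack stayed between 170 and 345 for the upper pair and between 86.8 and 172 for the lower pair. The partners were chosen by this pattern and by a steady sum.

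Another member with more than 1 zero, ENSSSCT00000018577.3 in siNR, had no such counterpart, and the members at 0 in 1 library were not searched for one. Of the 8 members at 0 in a single library, 5 were at 0 in siPC1 replicate 1, the library of lowest total. The other siPC1 libraries predicted 15.8, 8.97, 5.47, 3.60 and 1.53 reads for them there. A member at 48.5 to 65.8 normalized counts in 3 libraries of siPC1+siMRTF-A was at 0 in replicate 3, where 56.1 reads would have matched the others. The remaining 2 were at 0 in a group whose other libraries also held few reads of them.

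Each comparison used edgeR's quasi-likelihood test, fitted to all 5 groups and to the whole table. A call of higher or lower needed an adjusted p no greater than 0.05 (Benjamini-Hochberg, 27702 tested transcripts), a log2 fold change beyond 0.6 and a mean of 50 or more normalized counts. All 288 members passed the filter on low counts and 278 reached the mean of 50, as did 20212 transcripts in all. The other 10 members had means of 49.2 to 49.9. The background share given beside each count is the percent of those 20212 transcripts that were called in the same direction. The rule used the counts of every library compared here, so the shares describe the chosen list and are no test of it.

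The siRNA against polycystin-1 moved 153 of the 278 members. Effects of an siRNA beyond its target were not tested. With siPC1 against siNR, 71 of 278 members (25.5%) were called higher, where the background was 20.5%, and 82 (29.5%) were called lower, where it was 18%. The members called higher had a median log2 fold change of 1.5 and those called lower of -1.5, against 1.02 and -0.998 for all transcripts called. Over all 278 members the median log2 fold change was -0.02, against 0.03 for all transcripts at the mean of 50. The siPC1 and siNR libraries did not overlap in 140 of the 153 called members, and in 56.8% of the 278 members against 47.5% of all transcripts. Without siPC1 replicate 1 and siPC2 replicate 2, the libraries of lowest total, 286 members reached the mean of 50, of which 81 were called higher and 86 lower. Without siPC1 replicate A2, 70 were higher and 85 lower.

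The siRNA against polycystin-2 moved members in both directions. With siPC2 against siNR, 80 members (28.8%) were called higher, against a background of 16.5%, and 63 (22.7%) lower, against 13.9%. The median was 1.61 among those higher and -1.11 among those lower, and 0.10 over all 278 members against 0.03 for all transcripts. The siPC2 and siNR libraries did not overlap in 141 of the 143 called members, and in 66.2% of the 278 against 53.7% of all transcripts. Without the libraries of lowest total, 84 were higher and 62 lower. The balance of the directions changed with the setting: it was 68 higher and 70 lower with scaling on the members alone, 51 and 56 in a fit of these groups alone, and 14 and 17 among the 67 members at or above 5 CPM.

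Calls shared by both siRNAs outnumbered calls with 1 of them alone. There were 62 members raised by siPC1 and by siPC2, 22.3% of the 278 against 12.2% of all transcripts. Another 55 were lowered by both, 19.8% against 9.57%. A call with siPC1 alone was made for 9 members that rose (3.24% against 8.23%) and 26 that fell (9.35% against 8.35%). With siPC2 alone, 17 rose (6.12% against 4.19%) and 8 fell (2.88% against 4.21%). Of the rest, 1 was called in opposite directions and 100 (35.97% against 53.1%) in neither comparison. Both comparisons share the siNR libraries, so a common call is a description.

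**Figure D3:**
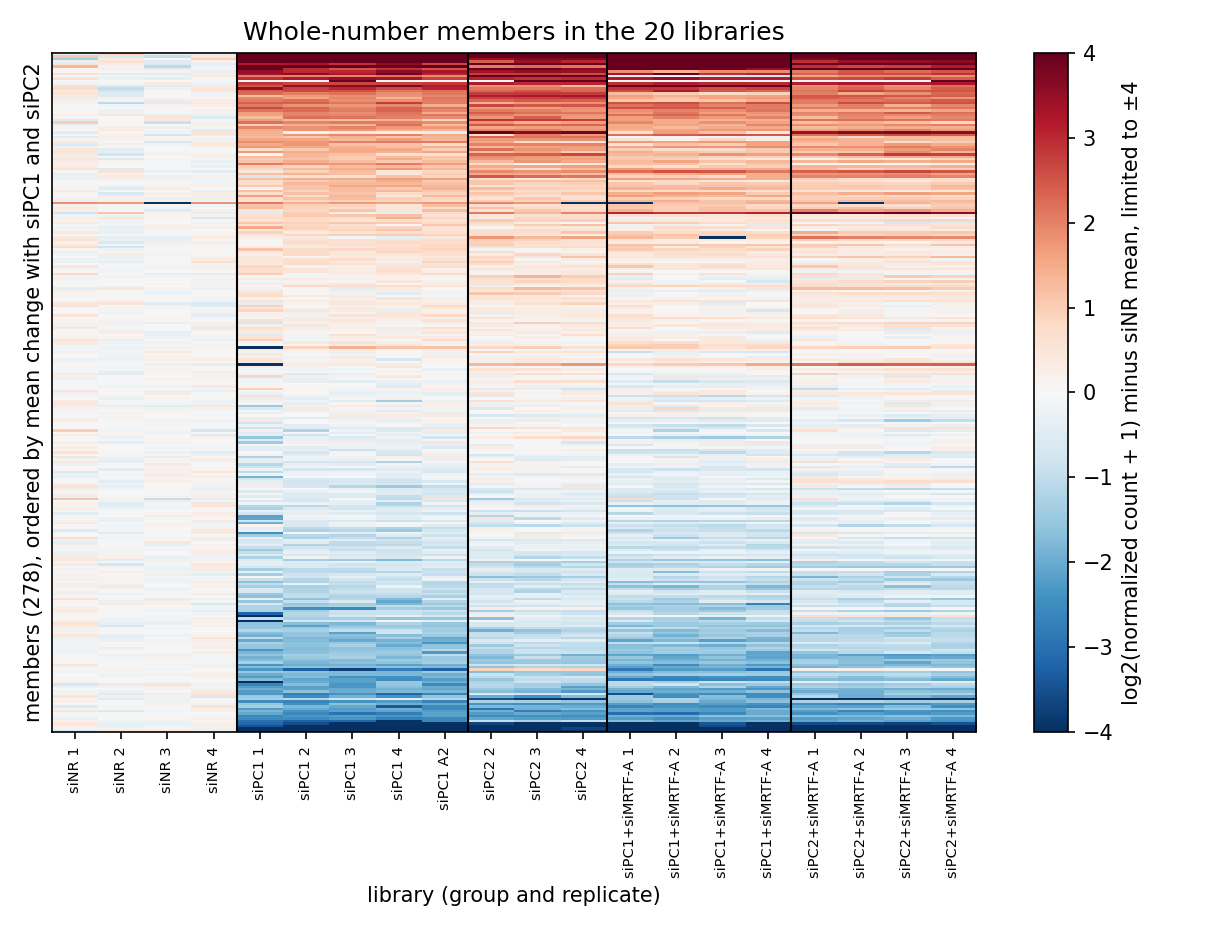
Each line is 1 of 278 members and each column a library; colour is log2(normalized count + 1) minus the mean of the siNR libraries, limited to ±4. Members are ordered by their mean over the siPC1 and siPC2 libraries, and the upper and lower ends keep their colour in the libraries with siMRTF-A; lone dark cells in siPC1 replicate 1 are members at or near 0 reads in that library.

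The largest common rise was that of ENSSSCT00000018577.3, picked among members called in both comparisons with groups that did not overlap. Its separation and small p are therefore conditions of the choice, as they are for the other largest rises and falls described below. In siNR this transcript had 0, 1, 0 and 0 reads, 1 read in all. In siPC1 it had 4, 80, 38, 63 and 32 reads (replicates 1, 2, 3, 4 and A2), and in siPC2 20, 63 and 58 reads, so every library of both groups lay above every siNR library. As normalized counts these were 50.3 ± 25.6 in siPC1 (SD, n = 5) and 66.8 ± 6.46 in siPC2 (SD, n = 3). The ratio of summed reads per library size was 209 for siPC1 over siNR (exact 95% interval 37.1 to 8290) and 273 for siPC2 over siNR (48.3 to 10873), intervals that cover counting error only. The fitted log2 fold changes, 7.07 ± 0.65 and 7.47 ± 0.67 (SE), depend on the prior count. Their adjusted p were 5.68e-08 and 8.49e-08 by edgeR's quasi-likelihood test. Each SE here and below is the absolute log2 fold change divided by the square root of the test's F statistic. It was not estimated by the fit itself and takes over the dependence on the prior count.

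With siMRTF-A added, the same transcript was higher again in the siPC1 arm. The siPC1+siMRTF-A libraries held 137, 226, 136 and 149 normalized counts, all above the siPC1 libraries at 26.97 to 86.6. The log2 change was 1.67 ± 0.41 (SE, edgeR's quasi-likelihood test, adjusted p = 0.0155). The siPC2+siMRTF-A libraries held 70.6, 115, 134 and 111 normalized counts and overlapped the siPC2 range of 62.1 to 74.2. There the log2 change was 0.68 ± 0.48 (adjusted p = 0.593), and the difference between the arms was not called (0.98 ± 0.62 on the log2 scale, adjusted p = 0.735).

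ENSSSCT00000003309.4 had the largest common fall. Its normalized counts in siNR were 211, 494, 487 and 275. In siPC1 it had 1, 4, 0, 2 and 2 reads, 3.13 ± 2.93 normalized counts (SD, n = 5), and in siPC2 it had 7, 19 and 12 reads, 18.8 ± 3.23 normalized counts (SD, n = 3). All libraries of both groups lay far below the lowest siNR library, and the siPC2 libraries lay above the siPC1 libraries. The log2 fold change was -7.25 ± 0.66 with siPC1 and -4.29 ± 0.68 with siPC2 (SE, edgeR's quasi-likelihood test, adjusted p = 5.33e-08 and 6.30e-05). The direct difference of siPC1 from siPC2 was -2.96 ± 0.65 (adjusted p = 0.00235). With siMRTF-A added it had 2 or 3 reads per siPC1+siMRTF-A library, and in the siPC2 arm 2, 2, 6 and 4 reads, lower than with siPC2 by 2.60 ± 0.64 on the log2 scale (-2.60, adjusted p = 0.0230).

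**Figure D4:**
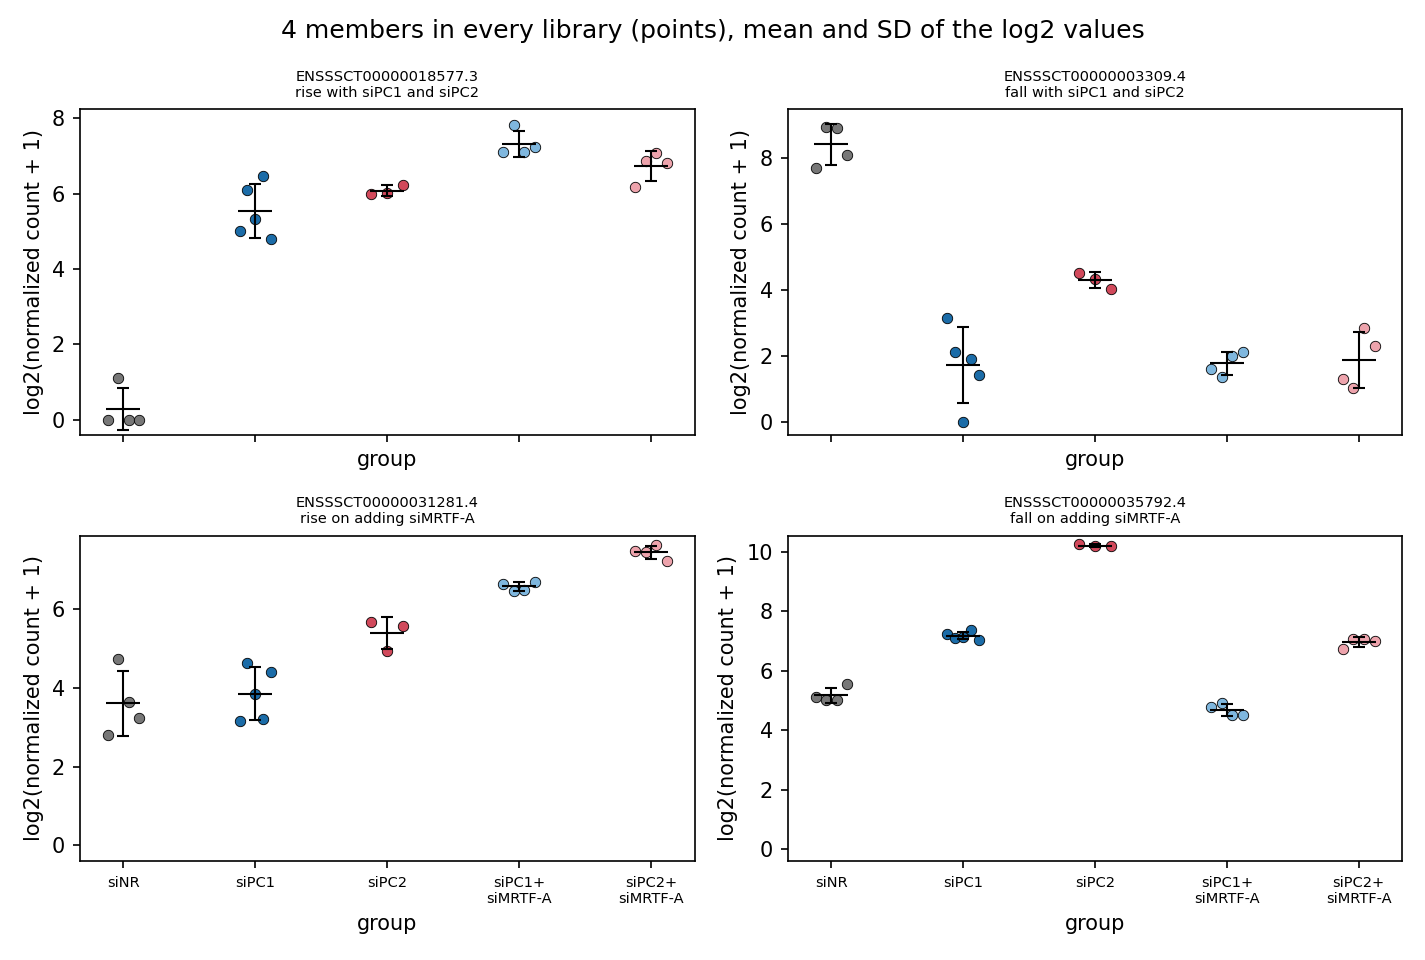
log2(normalized count + 1) in every library of the 5 groups for 4 members; points are libraries, horizontal bars the mean of the log2 values and vertical bars the SD (n = 4, 5, 3, 4 and 4). The panels show a rise from 1 read in all of siNR, a fall to under 10 normalized counts in siPC1, a rise with siMRTF-A in both arms and a fall with siMRTF-A in both arms.

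Addition of siMRTF-A moved few members. With siPC1+siMRTF-A against siPC1, 11 members (3.96%) were higher, against a background of 1.62%, and 14 (5.04%) lower, against 1.51%. With siPC2+siMRTF-A against siPC2, 3 (1.08%) were higher, against 0.91%, and 10 (3.60%) lower, against 1.27%. The libraries of the compared groups did not overlap in any of these 25 and 13 members. Called or not, they did not overlap in 20.9% of members against 14.3% of all transcripts in the siPC1 arm, and in 32.4% against 22.1% in the siPC2 arm. The medians over the 278 members were -0.02 and -0.05 on the log2 scale, against 0.02 and 0.01 for all transcripts.

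These counts were small and moved with the libraries used. In the siPC1 arm the number higher was 7 without siPC1+siMRTF-A replicate 2 and 14 without siPC1 replicate 1, and the number lower was 9 without siPC2+siMRTF-A replicate 2 and 17 without siPC1 replicate 1. In the siPC2 arm the number higher was 1 without siPC2 replicate 3 and 6 without siPC1 replicate 1, and the number lower was 6 without siPC2 replicate 4.

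Of the members raised by siPC1, 8 were lowered on adding siMRTF-A (2.88% of 278 against 0.534% of all transcripts). Their log2 fold changes ran from 0.69 to 3.34 with siPC1 against siNR and from -0.82 to -2.52 on adding siMRTF-A, and 4 of the 8 were still called higher than siNR in siPC1+siMRTF-A. Of the members raised by siPC2, 7 were lowered on adding siMRTF-A (2.52% against 0.480%), with log2 changes of -0.75 to -3.25, and 5 of the 7 were still called higher than siNR. The shares still called higher among all transcripts of these patterns are not given here, so the 4 of 8 and 5 of 7 describe these members only. There were 3 members raised by both siRNAs and lowered by siMRTF-A in both arms (1.08% against 0.163%). In the other direction, 5 members lowered by siPC1 were raised on adding siMRTF-A (1.80% against 0.564%), as was 1 of those lowered by siPC2 (0.360% against 0.455%). Some members moved further the same way when siMRTF-A was added. With siPC1, 4 raised members rose again (1.44% against 0.475%) and 3 lowered members fell again (1.08% against 0.307%). With siPC2, 2 raised members rose again (0.719% against 0.163%) and 3 lowered members fell again (1.08% against 0.178%). The comparisons share the polycystin siRNA libraries, so their calls are not independent.

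ENSSSCT00000035792.4 was the transcript with the strongest fall on adding siMRTF-A. It held 33.9, 31.3, 31.1 and 45.9 normalized counts in siNR and 149, 138, 139, 165 and 131 in siPC1. In siPC2 it held 1218, 1160 and 1179. The groups were clearly apart and the siPC2 libraries stood far above all others. The log2 fold change was 2.02 ± 0.14 with siPC1 and 5.06 ± 0.16 with siPC2 (SE, edgeR's quasi-likelihood test, adjusted p = 1.48e-09 and 4.62e-13), and siPC1 lay below siPC2 by a log2 difference of -3.04 ± 0.14 (adjusted p = 1.11e-10).

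With both siRNAs the same transcript held 26.7, 29.5, 21.8 and 21.8 normalized counts in siPC1+siMRTF-A, below every siNR library, and 106, 133, 134 and 126 in siPC2+siMRTF-A, above every siNR library. The log2 change on adding siMRTF-A was -2.52 ± 0.14 with siPC1 and -3.25 ± 0.15 with siPC2 (SE, edgeR's quasi-likelihood test, adjusted p = 8.35e-09 and 8.60e-10). The difference between these changes was 0.73 ± 0.20 and was not called (adjusted p = 0.124). Against siNR, siPC1+siMRTF-A differed by -0.50 ± 0.15 on the log2 scale, under the fold threshold (adjusted p = 0.0268), and siPC2+siMRTF-A by 1.81 ± 0.14 (adjusted p = 1.14e-08).

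ENSSSCT00000031281.4 was the only member called higher on adding siMRTF-A in both arms. It held 5.99, 25.5, 11.5 and 8.35 normalized counts in siNR, 7.84, 23.5, 13.4, 8.24 and 20.2 in siPC1 and 49.7, 29.5 and 46.0 in siPC2. The siPC1 libraries overlapped siNR (log2 fold change 0.26 ± 0.38, edgeR adjusted p = 0.619), and the siPC2 libraries lay above it (1.69 ± 0.42, adjusted p = 0.00353). It then held 98.6, 87.0, 88.0 and 102 normalized counts in siPC1+siMRTF-A and 175, 173, 194 and 148 in siPC2+siMRTF-A, above every library without siMRTF-A. The log2 change was 2.60 ± 0.38 on the siPC1 side and 2.05 ± 0.44 on the siPC2 side (SE, edgeR's quasi-likelihood test, adjusted p = 0.000219 and 0.00926). The lower values rest on few reads, since siPC1 replicate 1 had 1 read of it.

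The groups with both siRNAs were also compared with siNR. With siPC1+siMRTF-A against siNR, 69 members were higher (24.8%, background 20.2%) and 89 lower (32.0%, background 17.7%). With siPC2+siMRTF-A against siNR, 78 were higher (28.1%, background 17.6%) and 69 lower (24.8%, background 14.7%). Of the 62 members raised by both polycystin siRNAs, 54 (87.1%) were called higher than siNR in siPC1+siMRTF-A and 58 (93.5%) in siPC2+siMRTF-A. Among the 2463 transcripts of the whole table raised by both, these shares were 90.7% and 90.9%. Of the 55 members lowered by both, 53 (96.4%) and 52 (94.5%) were called lower than siNR, against 89.7% and 90.6% of 1935 transcripts. These sets were picked with the same siNR libraries, so the repeated call is in part built in and is a description. The median log2 change on adding siMRTF-A was 0.02 and -0.08 in the 62, and -0.01 and -0.09 in the 55, in the siPC1 and siPC2 arms.

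**Figure D5:**
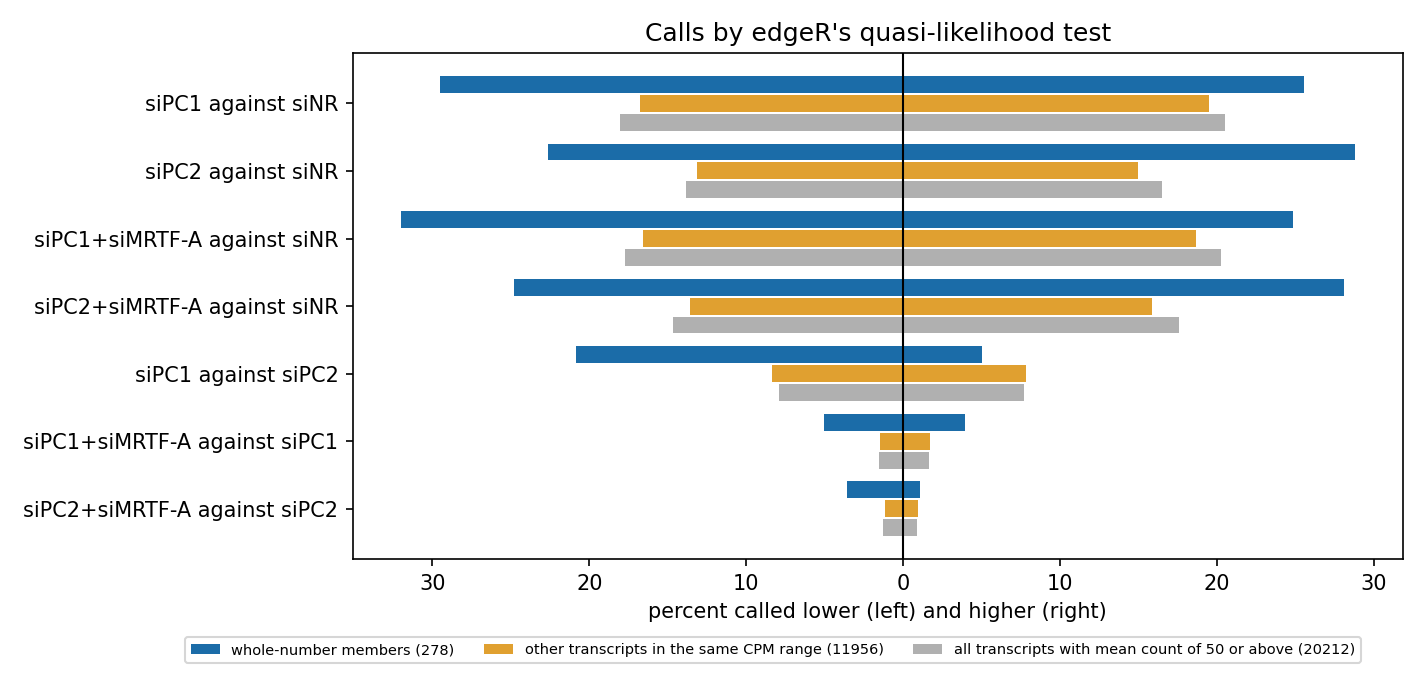
Percent of transcripts called lower (left of 0) and higher (right of 0) in 7 comparisons, for the 278 members (blue), the 11956 other transcripts in the same range of mean CPM (orange) and all 20212 transcripts that reached the mean of 50 (grey). The blue bars are longer than the grey in both directions except for higher in siPC1 against siPC2, where they reach 5.04% against 7.68%.

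The direct comparison of the polycystin siRNAs was skewed. With siPC1 against siPC2, 14 members (5.04%) were higher, against a background of 7.68%, and 58 (20.9%) were lower, against 7.92%. The median log2 difference was -0.20 over the members, of which 179 of 278 were below 0, and -0.00 over all transcripts. Among the 58, 23 were raised by siPC2 (8.27% of the 278, against 2.29% of all transcripts) and 26 were lowered by siPC1 (9.35% against 4.36%). There was 1 in both sets (0.360% against 0.114%), and 10 were called in neither way against siNR (3.60% against 1.38%). Without the libraries of lowest total, 13 were higher and 53 lower of 286.

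The skew was found mostly among members of low level. In 4 classes of the members by mean CPM, from 1.32 to 1.78, to 2.54, to 4.79 and to 23.6 CPM, the percent lower in siPC1 was 31.4, 24.6, 15.9 and 11.4. Other transcripts in the same ranges were called lower in 4.45, 5.87, 7.70 and 9.43% of cases. Among the 67 members at or above 5 CPM, 5 were higher and 7 lower. With library totals as the scale, 15 were higher and 59 lower. Scaling factors computed from the members alone, which centre the members by construction and moved the median of all tested transcripts by 0.18 on the log2 scale, gave 28 higher and 39 lower. A test against the fold threshold itself left 5 higher and 20 lower, and a fit of these libraries alone left 9 higher and 24 lower of 209 members that reached the mean of 50.

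The addition of siMRTF-A differed between the arms for 2 members, both with the larger value in the siPC1 arm (0.719%, background 0.228%), and for 0 in the other direction (background 0.178%) by edgeR's quasi-likelihood test. An unadjusted p under 0.05 was found for 28 of 278 members and for 2137 of all 20212 transcripts, much the same share. DESeq2 called 7 of 246 members higher and 0 lower, and its share over all transcripts is not given here. edgeR called 3 higher without siPC1 replicate 1, 1 without siNR replicate 2 and 1 in a fit of only the groups involved, and the test against the fold threshold called 0. The first had 131 ± 18.6 normalized counts in siNR, 13.7 ± 5.63 in siPC1 and 62.3 ± 9.003 in siPC2 (SD, n = 4, 5 and 3). With siMRTF-A it had 33.2 ± 3.73 and 29.0 ± 3.43 (SD, n = 4 each). It was called higher on adding siMRTF-A in the siPC1 arm, and its lower mean in the siPC2 arm was not called. The second had 1.79 ± 1.04 in siNR, 22.5 ± 5.51 in siPC1 and 124 ± 10.4 in siPC2 (SD, n = 4, 5 and 3). With siMRTF-A it had 138 ± 4.84 and 136 ± 16.5 (SD, n = 4 each), so the groups with siMRTF-A stood near the siPC2 level.

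The spread between replicates was smaller, in median, for the members than for other transcripts in each class of level. The spread of the counts of a group around its mean, divided by what counting error alone would give, had a median over the members of 2.56 in siNR, 1.88 in siPC1, 0.894 in siPC2, 1.55 in siPC1+siMRTF-A and 1.78 in siPC2+siMRTF-A. For the 11956 other transcripts in the members' range of CPM the medians were 8.003, 8.41, 3.29, 5.63 and 6.36. This measure grows with the count at a given relative spread, so the 4 classes by level are the closer comparison. In the lowest to the highest class the median biological coefficient of variation of the fit was 0.231, 0.218, 0.173 and 0.129 for members and 0.443, 0.388, 0.293 and 0.160 for others.

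The smaller spread went with smaller errors of the fold change. In the lowest class the median SE of the log2 fold change of siPC1 against siNR was 0.25 for members and 0.50 for others, and in the highest 0.12 and 0.15. In that comparison, 20% of the 70 members of lowest level were higher and 30% lower, against 13.8 and 11.7% of other transcripts there. Of the 70 members of highest level, 24.3% were higher and 28.6% lower, against 20.8 and 18.1%. The part that the smaller error has in the larger share of calls was not tested.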

How the data were processed

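RNA from LLC-PK1 cells was sequenced as poly(A) libraries, 20 in 5 groups taken from the sample titles. The authors trimmed the reads and quantified them with Salmon 0.14.1 against the coding sequences of Sscrofa11.1; reads from UTRs were therefore not counted. The submitters' processing notes give Trim Galore 0.6.3, FastQC 0.11.8 and HISAT2. The values deposited by the authors are Salmon's estimated counts (expected counts) per transcript, not normalized. Gene-level sums were not used here.

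Counts were rounded to whole numbers, which changed no member. Normalized counts are counts divided by the TMM-scaled library total, times the mean of these totals. edgeR 4.0.16 in R 4.3.3 (filterByExpr, TMM, glmQLFit, glmQLFTest) was fitted to all groups, and p-values were adjusted by Benjamini-Hochberg over all tested transcripts. The thresholds follow the study. The scripts were tested on simulated data. The members, lists and tests were chosen with earlier results of these data known. By rule, 1 member was named for each of 4 patterns: the largest mean rise and fall with both polycystin siRNAs and with both additions of siMRTF-A, among members called in both and with groups that did not overlap. Alternatives were DESeq2 1.42.0, other scalings, filters, thresholds, samples, a replicate block and other definitions of the members. No set test was run. Totals of 4421001 to 71007731 limit the precision of members with few reads.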

Additional observations from a re-analysis of the deposited data

Results flagged for a closer look

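In groups of 4 or 5 libraries, 28 groups of values, of the 4 named and 2 exchanging members and of the share of a library held by all members, were examined for a library far from the others, and chance flags about 1 in 20. ENSSSCT00000018577.3 stood apart in siNR replicate 2, at 1.16 normalized counts (1 read) against 0 in the rest, and in siPC1+siMRTF-A replicate 2, at 226 against 136 to 149. ENSSSCT00000049089.3 stood apart in siPC1 replicate 3, at 249 against 0, and in siPC2+siMRTF-A replicate 4, at 320 against 0. ENSSSCT00000046623.3 stood apart in siNR replicate 3, at 0 against 133 to 148, and in siPC1+siMRTF-A replicate 1, at 0 against 91.6 to 110. In the last 4 cases the partner transcript held the reads. These members were singled out for being at 0 in some libraries, so their flags follow from the choice. A group with 1 library above 0 and the rest at 0 is flagged at any value, as in siNR for ENSSSCT00000018577.3. The rate of 1 in 20 is no measure for such groups.

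The interaction test, which asks whether the change on adding siMRTF-A differs between the arms, picked out 2 members. The difference, siPC1 arm minus siPC2 arm, was 2.38 on the log2 scale for the first (edgeR's quasi-likelihood test, adjusted p = 0.0135) and 2.49 for the second (adjusted p = 0.00425).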

How the results depend on the processing

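Of 726 pairs of a member share and an alternative, 657 stayed within 1.5 times and 69 moved further. Of 264 log2 fold changes of the named members, 259 kept their direction and side of the threshold, 5 lost the call and 0 changed sign. Shares below are percents of the members that reached the mean count, whose number is given where it was not 278. Where no value below shows why a share moved, the cause was not tested.

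With DESeq2 (246 members reached the mean, and 1 member had no adjusted p in each comparison), siPC2+siMRTF-A against siPC2 gave 2.85 higher and 6.10 lower, the interaction 2.85 higher, and raised by siPC2 then lowered by siMRTF-A 4.47. With library totals (285 members), lowered by siPC1 then raised by siMRTF-A was 1.05. This scaling moved the median of all transcripts by 0.14 in siPC1 and siPC2 against siNR, and the members' medians there became 0.10 and 0.24, beside 0.17 and 0.17 for all transcripts. With scaling on the members alone (277), siPC1+siMRTF-A against siPC1 was 3.25 lower, siPC2+siMRTF-A against siPC2 1.81 higher and siPC1 against siPC2 10.1 higher. This scaling balances the members by construction. Called members that were higher then made up 41.8% in siPC1 against siPC2, 55.0% in siPC1+siMRTF-A against siPC1 and 35.7% in siPC2+siMRTF-A against siPC2, where they had been 19.4, 44.0 and 23.1%, and 20.3, 40.0 and 23.1% with library totals.

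Without a fold threshold, 8.27 were higher in siPC1 against siPC2. The test against the fold threshold gave 19.1 higher and 12.9 lower in siPC2 against siNR, 1.08 higher and 1.08 lower in siPC1+siMRTF-A against siPC1, 0 higher and 0.360 lower in siPC2+siMRTF-A against siPC2, 1.80 higher and 7.19 lower in siPC1 against siPC2, and 0 in the interaction. By pattern it gave 11.5 lowered by both siRNAs, 1.08 and 0.360 raised by siPC1 or siPC2 then lowered by siMRTF-A, and 0 and 0 lowered then raised. Fits of only the compared groups, in which 209 to 261 members reached the mean, gave 2.25 higher and 2.70 lower in siPC1+siMRTF-A against siPC1, 11.5 lower in siPC1 against siPC2, 0.383 higher in the interaction, 14.8 raised by both siRNAs, 1.64 raised by siPC1 then lowered by siMRTF-A and 0 lowered by siPC1 then raised.

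Without the 2 libraries of lowest total (286), 0.699 were lowered by siPC2 then raised by siMRTF-A. For the 67 members at or above 5 CPM, siPC1+siMRTF-A against siPC1 gave 1.49 higher and 2.99 lower, siPC1 against siPC2 10.4 lower, the interaction 0, raised by siPC1 then lowered 1.49, lowered by siPC1 then raised 0 and lowered by siPC2 then raised 1.49. For 763 transcripts whole within 0.01 in at least 19 libraries, siPC1+siMRTF-A against siPC1 gave 3.15 lower, siPC2+siMRTF-A against siPC2 1.97 higher, siPC1 against siPC2 8.52 higher, the interaction 0.262 lower, raised then lowered 1.31 and 1.31, and lowered by siPC2 then raised 0.786.

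Leaving out 1 library at a time gave ranges of 2.52 to 4.90 higher and 3.41 to 5.94 lower in siPC1+siMRTF-A against siPC1, 0.365 to 2.10 higher and 2.16 to 5.05 lower in siPC2+siMRTF-A against siPC2, and 0.355 to 1.05 higher in the interaction, lowest without siNR replicate 2. By pattern the ranges were 1.44 to 3.61 raised by siPC2 then lowered, lowest without siPC2 replicate 4, 0.697 to 2.10 lowered by siPC1 then raised, lowest without siPC1+siMRTF-A replicate 4, and 0.348 to 0.699 lowered by siPC2 then raised.

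Replicate numbers were shared between groups. Same-numbered libraries deviated together more than other pairs, though weakly in the mean. Their mean rho was 0.108 over 36 pairs (highest 0.552), of which 15 were over 0.1. For 123 other pairs it was -0.0236 (highest 0.436), and 21 were over 0.1. The labels do not say whether a shared number marks a pair or a batch, and the main fit used the group only. With the replicate block, 69 members were higher and 85 lower in siPC1 against siNR, 80 and 59 in siPC2 against siNR, 9 and 11 in siPC1+siMRTF-A against siPC1, and 2 and 11 in siPC2+siMRTF-A against siPC2.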
